A study of Rattus with 6 samples.

Results

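The genes described here are the non-coding RNA genes that were expressed in cultured bone marrow mesenchymal stem cells (BMSCs) of the rat. They were chosen by their measured levels: a gene counted if its table entry was of a type other than protein-coding, if it was not H19, and if it reached 2 FPKM (fragment counts scaled for gene length and library depth) in at least 3 of the 6 libraries. Of 1866 non-coding genes in the table, 84 were chosen, out of 16690 genes in all. The study compared BMSCs from Sprague Dawley rats in which chronic kidney disease was modelled (CKD, 3 libraries) with BMSCs from healthy rats (control, 3 libraries), and its design text gives the molecular changes that accompany CKD as the question. All animals were of wild-type genotype, the cells were grown in the same serum-containing medium and used at passages 3 to 5, and RNA was poly-A selected. The way CKD was induced, and the age of the animals, are not given in the sources used here. The extract protocol speaks of exosome RNA and the design text of RNA from the cells, so the source of the RNA remains unsettled here.

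Long non-coding RNAs (lncRNAs) are transcribed, spliced and often polyadenylated like messenger RNAs but code for no long protein. Some act in the nucleus on chromatin or on splicing bodies, some bind microRNAs or proteins in the cytoplasm, and others matter mainly through what their introns carry. Host genes of small nucleolar RNAs (snoRNAs) are of the last kind: the snoRNAs that guide ribosomal RNA modification are cut from the introns, and the spliced remainder is commonly removed by nonsense-mediated decay. In mesenchymal cells, lncRNAs have mostly been studied for their part in proliferation and in the choice between bone and fat.

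The libraries held between 34404037 and 46892613 fragments, so 3 fragments of a gene of median length amounted to 0.0199 to 0.0272 FPKM. The design text calls the libraries biological replicates, but no label ties a library to an animal, and library names share a start in CKD replicates 1 and 3 and in control replicates 1 and 2, so p-values measure the spread between libraries, which may be technical. The disease tag contradicts title and column name in CKD replicate 1 (tagged as control) and control replicate 2 (tagged as CKD). The start of the library name of control replicate 3 states no group, and the title of CKD replicate 3 bears another number. Replicate 1 of both groups stood apart from the other 4 libraries in many genes. Of 10 mesenchymal stem cell markers, 9 were expressed, among them Thy1 and Itgb1, and Lepr was under 0.5 FPKM in every library. Markers of haematopoietic cells and macrophages, 15 of 15 in the table, had list medians of 4.21, 67.7 and 46.4 FPKM in CKD replicates 1 to 3 and of 12.1, 0.215 and 0.109 FPKM in control replicates 1 to 3. The adipocyte list (2 of 3 in the table) reached summed levels of 93.0 to 95.1 FPKM in CKD replicates 2 and 3, nearly all Fabp4, against 1.55 to 4.24 FPKM elsewhere, with Plin1 at or near 0. Endothelial markers (4 of 5 in the table) summed to at most 2.68 FPKM, the lymphoid list (1 of 3) to at most 0.0637 FPKM, and erythroid genes were not analysed here. Whether any of these values had a part in the differences below was not tested, except where a value is given.

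Only 4.50% of the non-coding genes in the table reached the threshold, against 62.4% of the protein-coding genes. The 84 genes were modest in level and length. Their mean over the 6 libraries ran from 1.50 to 112 FPKM with a median of 4.86 FPKM, and 27 reached 10 FPKM. Protein-coding genes held to the same threshold had a median of 10.0 FPKM and a median implied length of 3028 bases, against 1209 bases for the non-coding genes. In sum the 84 genes took 0.193%, 0.217% and 0.184% of all fragments in the CKD libraries and 0.191%, 0.250% and 0.241% in the controls. The 10 genes highest in a given library, picked anew for each library, made up 49.8% to 57.1% of the summed FPKM there. All 6 libraries reached 2 FPKM for 54 genes, 5 libraries for 9, 4 libraries for 11 and 3 libraries for 10. At the edge of the rule, the third-highest value was 2.04 FPKM for LOC120100724 and 2.07 FPKM for LOC102550246, just inside, and 1.98 FPKM for LOC120097504 and 1.92 FPKM for LOC102550774, just outside.

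Few of these genes have a name. Placeholder LOC symbols stood for 73 of the 84, and 11 had an assigned symbol: Gas5, Mtln, Oip5-as1, Tug1, Pvt1, Dancr, Lnc134, Crnde, Carmn, Snhg4 and Thumpd3-as1. Mtln is known to encode mitoregulin, a small mitochondrial peptide, although the table types it as non-coding. By identifier, 73 genes were found in RefSeq's annotation of another rat assembly, GRCr8, of which 72 are lncRNA genes there and 1 (LOC102546433) a transcribed pseudogene; the other 11 were not matched. In that annotation 12 of the genes hold snoRNA genes inside their bounds, 3 hold microRNA genes, 24 others overlap a protein-coding gene, 12 others lie within 1 kb of one, and 22 lie farther away. These classes were formed after the values had been seen. A coding gene said below to lie by, beside, near or next to a non-coding gene is its nearest in that annotation or in the table. It may lie farther than 1 kb away. Whether counting used the strand is not given in the sources used here, so reads of a gene and of an overlapping partner cannot be told apart.

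**Figure D1:**
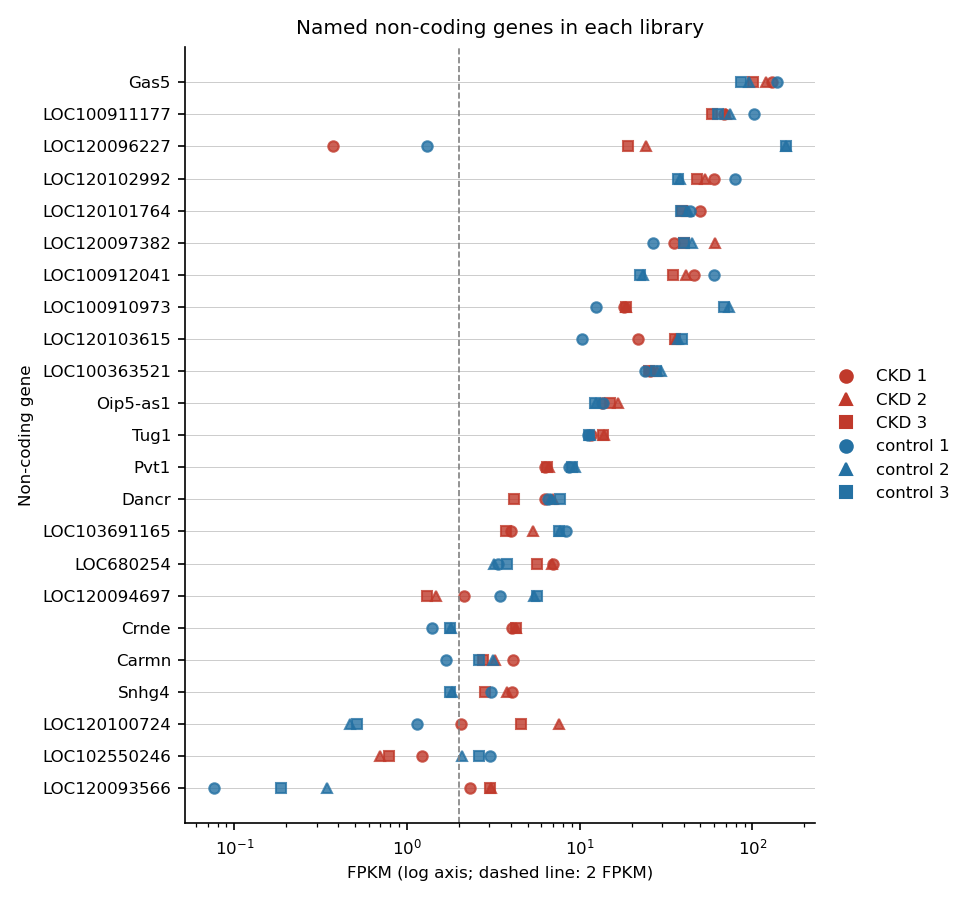
Levels of 23 non-coding genes in FPKM (log axis), ordered by their mean, with 1 point per library (red CKD, blue control, shapes for replicates 1 to 3) and a dashed line at the 2 FPKM threshold. Gas5 lies at the top with 86.4 to 140 FPKM, LOC120096227 spreads from 0.374 to 157 FPKM, and the 6 points of Pvt1, Crnde, LOC680254 and LOC120093566 fall into separate red and blue clusters.

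Gas5 (growth arrest-specific 5), a snoRNA host gene whose RNA accumulates when growth and translation slow, had the highest mean. Its levels were 130, 120 and 100 FPKM in CKD replicates 1 to 3 and 140, 95.4 and 86.4 FPKM in control replicates 1 to 3, from 1419 to 2808 fragments per library. The groups overlapped, and replicate 1 was the highest library of each group. The means were 117 ± 15.2 FPKM in the CKD libraries and 107 ± 28.5 FPKM in the controls (SD, n = 3 each), and the log2 difference was 0.15 ± 0.21 (SE; adjusted p = 0.714, limma).

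LOC100911177 came second, with 68.7, 70.1 and 58.4 FPKM in the CKD libraries and 103, 73.7 and 63.5 FPKM in the controls. It holds Snord12 and Snord12c and lies next to Znfx1, the setting of the host gene ZFAS1 in human. LOC120102992, with Snora61 and Snord99 next to Trnau1ap (the setting of human SNHG12), had 59.9, 53.2 and 47.6 FPKM in CKD and 78.8, 38.0 and 37.1 FPKM in control. LOC100912041, with Snord26, Snord27, Snord28b and Snord30 next to Slc3a2 (the setting of human SNHG1), had 46.2, 41.4 and 34.5 FPKM in CKD and 59.6, 23.1 and 22.3 FPKM in control. For all 3 genes, control replicate 1 was the highest of the 6 libraries, and the groups overlapped.

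LOC120097382, the longest of the 84 genes at an implied 9080 bases, had 35.2, 60.6 and 40.3 FPKM in CKD and 26.5, 44.5 and 40.0 FPKM in control. Its nearest coding gene in GRCr8 is Frmd8. LOC120101764, not matched in GRCr8, was among the steadiest of the abundant genes, with 49.5, 41.9 and 39.4 FPKM in CKD and 43.4, 42.1 and 38.7 FPKM in control. LOC100363521, which RefSeq's newer annotation calls Smim30l1, ran only from 23.7 to 29.7 FPKM over the 6 libraries. LOC120103615, which overlaps the bradykinin receptor gene Bdkrb2, had 21.8, 35.9 and 35.7 FPKM in CKD and 10.3, 37.0 and 39.0 FPKM in control, with replicate 1 low in both groups. None of the 10 genes with the highest means passed the test between groups; their adjusted p-values ran from 0.386 to 0.887.

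Between CKD and control, the limma test over all 10638 tested genes called 3 of the 84 non-coding genes higher in CKD and 1 lower, at an adjusted p below 0.05. Crnde, LOC120093566 and LOC680254 rose and Pvt1 fell. Over all tested genes, 1.33% were called higher and 0.733% lower, and counts as small as 3 and 1 of 84 do not show the non-coding genes to differ from the rest. In bulk RNA, fewer cells of a type and less RNA per cell cannot be told apart. At an unadjusted p below 0.05, 20 of the 84 passed, 8 with a positive and 12 with a negative difference. The log2 difference was positive in 42 and negative in 42, with a median of 0.01, against a median of 0.05 and 59.4% positive over all tested genes.

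The CKD libraries all lay above the controls in 7 of the 84 genes, beside 18.3% of all tested genes, and all below them in 14, beside 9.59%. In the authors' deposited table, a q-value below 0.05 stood beside 4 of the genes as higher in CKD (6.72% of the table's genes) and 9 as lower (4.6%), and all 4 genes called by limma were among them. Since a gene entered the set if only 1 group reached 2 FPKM, 6 of the 84 had to differ in level: Crnde, LOC120093566, LOC120100724 and LOC120103564 reached the threshold in the CKD libraries alone, and LOC102548205 and LOC102550246 in the controls alone. Their tests describe their size and give no support of their own.

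**Figure D2:**
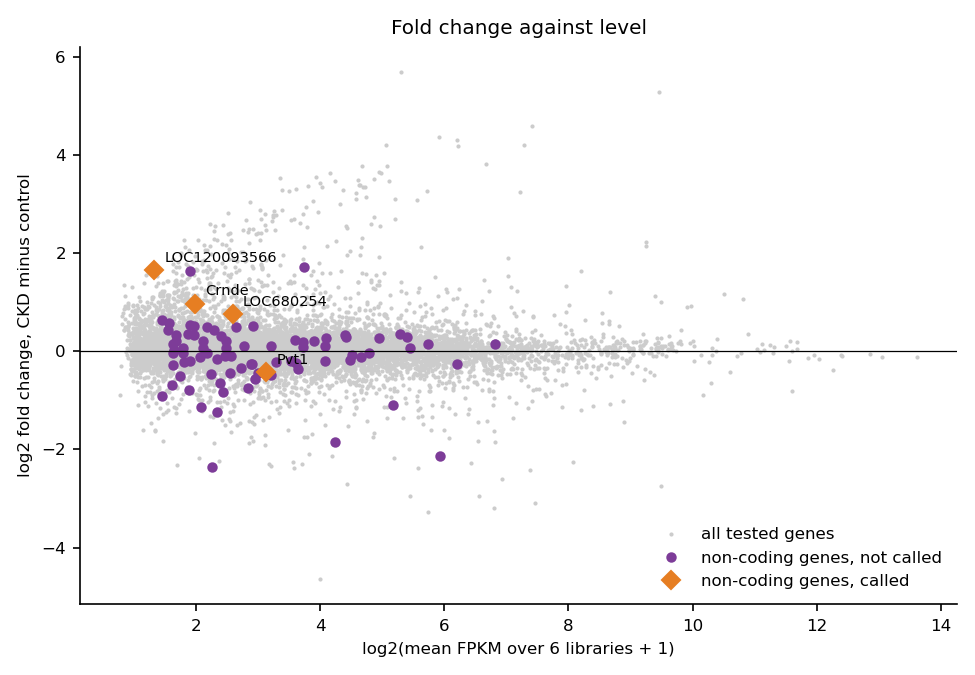
Log2 difference of CKD minus control (y axis) against log2 of the mean FPKM plus 1 (x axis) for all 10638 tested genes (grey), and the 84 non-coding genes (purple, not called; orange, the 4 called). The called genes sit at low to middle levels, between log2 differences of -0.43 (Pvt1) and 1.66 (LOC120093566), and most purple points lie close to 0.

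Pvt1, a lncRNA gene beside the Myc proto-oncogene that is transcribed in many proliferating cells, fell. Its levels were 6.27, 6.62 and 6.43 FPKM in the CKD libraries and 8.64, 9.33 and 9.07 FPKM in the controls, from 651 to 1158 fragments. Every CKD library was below every control library, and the spread within a group was small. The means were 6.44 ± 0.173 and 9.01 ± 0.348 FPKM (SD, n = 3 each), and the log2 difference was -0.43 ± 0.07 (SE; adjusted p = 0.0447, limma). Pvt1 reached 2 FPKM in all libraries, so the rule did not fix its direction. It was called in 5 of 16 other settings, with log2 differences of -0.49 to -0.09 and adjusted p from 0.00108 to 0.888. Myc itself had 18.9, 21.5 and 18.8 FPKM in CKD and 29.3, 8.75 and 10.0 FPKM in control, with overlapping groups and a log2 difference of 0.48 ± 0.44 (adjusted p = 0.550).

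Crnde (colorectal neoplasia differentially expressed), transcribed away from the homeobox gene Irx5 and known as abundant in embryonic and tumour cells, rose. It had 4.04, 4.28 and 4.29 FPKM in the CKD libraries and 1.40, 1.81 and 1.78 FPKM in the controls, from 54 to 152 fragments. The lowest CKD library was above the highest control, which the rule fixed, since only the CKD libraries reached 2 FPKM. The means were 4.20 ± 0.145 and 1.66 ± 0.227 FPKM (SD, n = 3 each), and the log2 difference was 0.97 ± 0.09 (SE; adjusted p = 0.0189, limma). It was called in 9 of 16 other settings, with log2 differences of 0.41 to 1.35 and adjusted p from 6.57e-05 to 0.746. Irx5, whose bounds it overlaps in GRCr8, had 3.33, 4.37 and 4.50 FPKM in CKD and 1.04, 2.49 and 2.41 FPKM in control, without overlap of the groups and without passing the test (log2 difference 0.80 ± 0.24, adjusted p = 0.142).

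LOC120093566 showed the widest called difference and rested on the fewest reads. Its levels were 2.32, 3.07 and 3.03 FPKM in CKD, from 50, 59 and 73 fragments, and 0.0763, 0.343 and 0.187 FPKM in control, from 2, 8 and 4 fragments. The groups did not overlap, and here too the rule fixed this, since the controls stayed under 2 FPKM. The log2 difference of FPKM plus 1 was 1.66 ± 0.13 (SE; adjusted p = 0.0125, limma), which understates the change of so low a gene; the authors' deposited table gives a log2 fold change of 3.73 (q = 7.32e-08). It was called in 9 of 16 other settings, with log2 differences of 0.79 to 3.86 and adjusted p from 1.32e-05 to 0.716. It overlaps Dcn, the gene of decorin, an abundant proteoglycan of connective tissue, in GRCr8. Dcn had 228, 312 and 227 FPKM in the CKD libraries and 87.0, 19.9 and 9.15 FPKM in the controls (log2 difference 3.26 ± 0.77, adjusted p = 0.0985). The groups did not overlap for Dcn either, and the authors' deposited table gives it a log2 fold change of 2.64 (q = 0.00532). Reads of the pair cannot be told apart.

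LOC680254 rose too. It had 7.02, 6.89 and 5.69 FPKM in CKD and 3.37, 3.21 and 3.79 FPKM in control, from 83 to 168 fragments, again without overlap. The means were 6.54 ± 0.732 and 3.46 ± 0.301 FPKM (SD, n = 3 each), and the log2 difference was 0.76 ± 0.10 (SE; adjusted p = 0.0427, limma). It reached 2 FPKM in all 6 libraries. It was called in 5 of 16 other settings, with log2 differences of 0.13 to 0.91 and adjusted p from 0.00149 to 0.908. Its nearest coding neighbour in the table is Rasal2, which codes for a Ras GTPase-activating protein and had 1.14 ± 0.505 FPKM in the CKD libraries and 0.828 ± 0.0242 FPKM in the controls (SD, n = 3 each), too low to be tested.

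The 4 called genes were also compared within replicate 1 of both groups, and within the other 4 libraries, because replicate 1 stood apart. The log2 difference of Pvt1 was -0.41 in the first and -0.44 in the second, that of Crnde 1.07 and 0.92, that of LOC680254 0.88 and 0.69, and that of LOC120093566 1.62 and 1.68. These values are a description: the groups of the 4 genes do not overlap, so the choice of genes fixed that both signs are the same. Over the whole set, 53 of the 84 non-coding genes had the same sign in both comparisons, beside 5850 of 10638 tested genes.

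**Figure D3:**
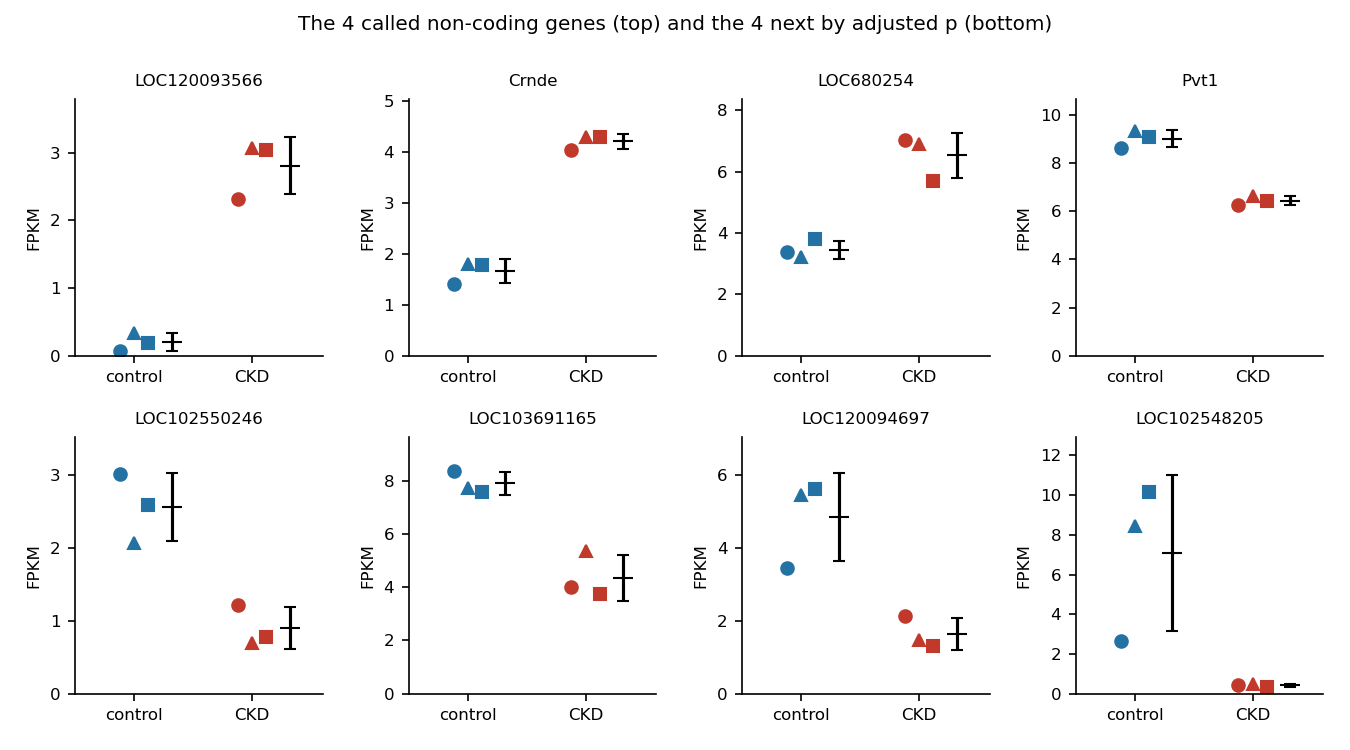
FPKM (y axes from 0) of the 4 called non-coding genes (top) and of the 4 with the next lowest adjusted p (bottom), with 1 point per library (circle, triangle and square for replicates 1, 2 and 3) and the group mean ± SD beside the points. No panel has overlapping groups; the bottom genes have adjusted p of 0.0509 to 0.0589 and did not pass the test.

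Just beyond the threshold came 4 genes with placeholder names and lower means in CKD. LOC102550246 had 1.225, 0.696 and 0.784 FPKM in CKD and 3.01, 2.07 and 2.60 FPKM in control (log2 difference -0.91 ± 0.15, adjusted p = 0.0509). Its nearest coding neighbour in the table is Dhrs3, a retinaldehyde reductase gene that limits retinoic acid, and Dhrs3 fell, from 31.7 ± 1.93 FPKM in control to 13.9 ± 2.104 FPKM in CKD (n = 3 each, SD; log2 difference -1.14 ± 0.12, adjusted p = 0.0231). LOC103691165 had 4.00, 5.34 and 3.73 FPKM in CKD and 8.37, 7.71 and 7.59 FPKM in control (log2 difference -0.74 ± 0.13, adjusted p = 0.0513). Its neighbour Akap13, which codes for an A-kinase anchoring protein, had a log2 difference of 0.01 ± 0.10 (adjusted p = 0.949). In GRCr8, LOC102550246 also overlaps the unnamed coding gene LOC103692519, and LOC103691165 the unnamed coding gene LOC134485139. Reads of these pairs cannot be told apart.

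LOC120094697 had 2.14, 1.46 and 1.30 FPKM in CKD and 3.45, 5.46 and 5.62 FPKM in control (log2 difference -1.14 ± 0.20, adjusted p = 0.0559), while the nearby receptor gene Erbb4 did not exceed 0.0743 FPKM in any library. LOC102548205 had 0.450, 0.481 and 0.326 FPKM in CKD and 2.65, 8.45 and 10.2 FPKM in control, from 34 to 42 fragments in CKD and 301 to 941 in control. The log2 difference was -2.36 ± 0.42 (adjusted p = 0.0589), the most negative of the 84, and replicate 1 was the lowest of its controls. Neither gene overlaps a coding gene in GRCr8. In the authors' deposited table, all 4 genes are marked as lower in CKD. The log2 fold changes there are -1.58 (q = 0.000363) for LOC102550246, -0.945 (q = 2.8e-05) for LOC103691165, -1.64 (q = 9.65e-05) for LOC120094697 and -4.16 (q = 1.73e-12) for LOC102548205. The rule itself fixed that LOC102550246 and LOC102548205 differ in level.

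Host genes of snoRNAs were expressed throughout, and none was called. All 12 genes with snoRNAs inside their bounds, 35 snoRNAs in all, reached 2 FPKM in every library, and their median level was 15.8 FPKM against 4.86 FPKM for the 84. Their log2 differences were positive in 7 and negative in 5, with a median of 0.12. At an unadjusted p below 0.05, LOC100909675 (with Snord93, next to Tomm7) was the only one that passed, with 6.20, 6.68 and 5.91 FPKM in CKD and 5.44, 3.44 and 3.69 FPKM in control (log2 difference 0.50 ± 0.16, adjusted p = 0.149).

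The summed level of the 12 host genes was 418, 369 and 313 FPKM in CKD replicates 1 to 3 and 496, 307 and 289 FPKM in control replicates 1 to 3. In 6 of the 12 both first replicates lay above all of the other 4 libraries, beside 10.9% of all tested genes, and in none below them, beside 18.2%; the class was formed with these values in view. The 6 were Gas5, LOC120102992, LOC100912041, LOC102549726, LOC100909539 and LOC120098269. LOC102549726, which holds Snord48 and Snord52 and lies by Hspa1b, had 33.9 and 34.5 FPKM in the first replicates of CKD and control and 16.8 to 21.0 FPKM in the other libraries. LOC100909539, with Snord123, had 26.2 and 32.7 FPKM against 11.7 to 19.4 FPKM, and LOC120098269, by Epb41l4a, 14.9 and 15.7 FPKM against 7.50 to 10.4 FPKM. The other 6 did not show this split, and in 3 of them replicate 1 was the lowest control: LOC100911266 had 9.83, 14.8 and 14.6 FPKM in the controls, LOC102547700 7.01, 8.06 and 8.67 FPKM, and Dancr 6.59, 6.85 and 7.65 FPKM.

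**Figure D4:**
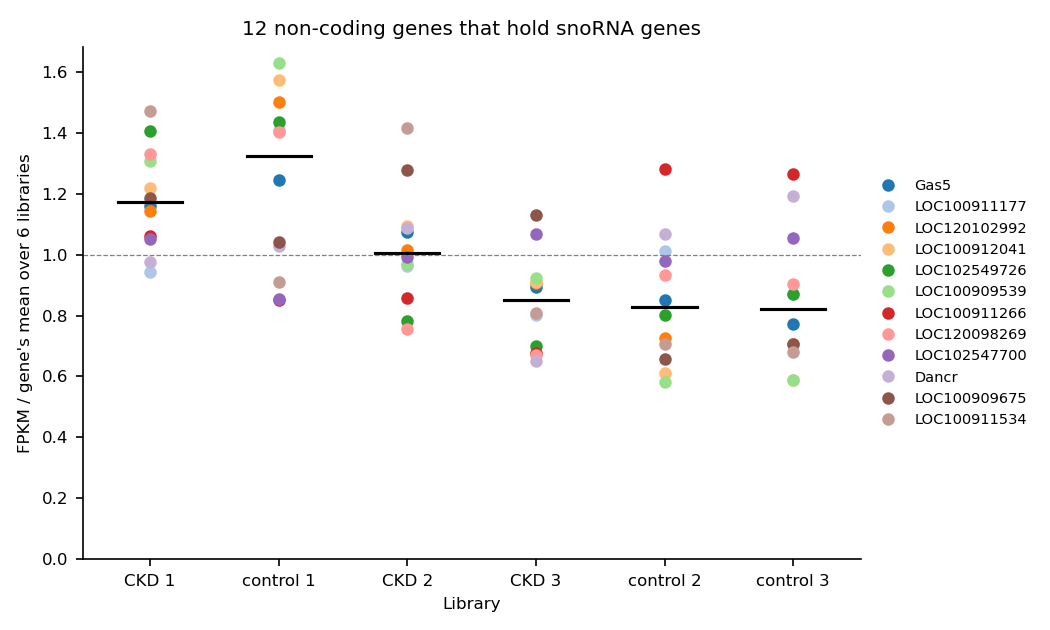
Each of the 12 non-coding genes that hold snoRNA genes, as its FPKM in a library divided by its own mean over the 6 libraries (y axis from 0; black bar, median of the 12; dashed line, the gene's mean), with both first replicates at the left. The medians of CKD 1 and control 1 lie above 1, those of CKD 3, control 2 and control 3 below it.

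Dancr, a lncRNA named for holding progenitor cells undifferentiated, holds 1 snoRNA gene here and had 6.26, 6.97 and 4.17 FPKM in CKD and 6.59, 6.85 and 7.65 FPKM in control (log2 difference -0.26 ± 0.18, adjusted p = 0.421). Snhg4, a host gene at the start of the nuclear matrix gene Matr3, had 4.05, 3.80 and 2.84 FPKM in CKD and 3.06, 1.82 and 1.76 FPKM in control, from 16 to 37 fragments. With a log2 difference of 0.52 ± 0.19 it reached an unadjusted p of 0.0366 and an adjusted p of 0.195, and it overlaps Matr3. Of a list of 22 snoRNA host gene symbols, these 2 and Gas5 were the only ones found in the table under those names.

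Genes that hold microRNAs numbered 3, and none was called. Carmn, the smooth muscle lncRNA whose locus carries Mir143 and Mir145, had 4.12, 3.23 and 2.74 FPKM in CKD and 1.68, 3.13 and 2.62 FPKM in control (log2 difference 0.34 ± 0.20, adjusted p = 0.366). LOC102550366, with the cell cycle microRNAs Mir322 and Mir503 and with Mir351, had 2.75, 2.16 and 1.94 FPKM in CKD and 2.66, 0.956 and 0.984 FPKM in control. LOC130062807, with Mir31, had 4.93, 10.9 and 8.01 FPKM in CKD and 6.33, 4.72 and 4.09 FPKM in control. The groups overlapped for all 3. These values are of the long transcripts; mature microRNAs are not captured by poly-A selection.

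Among lncRNAs known from growth control and the nucleus, Tug1 (taurine up-regulated 1), a lncRNA required for retinal and male germ cell development, had 11.7, 13.9 and 13.6 FPKM in CKD and 11.2, 11.4 and 11.3 FPKM in control. The CKD libraries all lay above the controls, but the gene overlaps a coding gene without a name in GRCr8 and the log2 difference of 0.19 ± 0.08 did not pass the test (adjusted p = 0.258). Oip5-as1, also called Cyrano and known for marking the microRNA miR-7 for destruction, had 13.5, 16.6 and 14.9 FPKM in CKD and 13.5, 12.4 and 12.3 FPKM in control (log2 difference 0.21 ± 0.10, adjusted p = 0.259). Its levels per library were close to those of Tug1 and moved within a similarly narrow range. Of 16 nuclear lncRNAs listed, 6 were in the table under their symbols, and all but Tug1 stayed under the threshold: Ftx and Jpx reached at most 1.26 and 1.29 FPKM, Hotairm1 had 2.24 FPKM in control replicate 3 alone, and Miat did not exceed 0.0151 FPKM. Whether others of the list stand in the table under placeholder names was not examined, so their absence by symbol does not show that they were not expressed. The imprinted lncRNA Meg3 was at 0.541 FPKM in control replicate 1 and at most 0.0123 FPKM elsewhere, and of 20 listed microRNA hosts Mir155hg alone was in the table under its symbol, at most 0.352 FPKM. The 14 listed small structured RNAs were not analysed here.

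The remaining symbols did not pass the test. Mtln had 19.6, 14.2 and 10.9 FPKM in CKD and 15.9, 16.1 and 18.7 FPKM in control. Lnc134 ran from 3.30 to 4.63 FPKM and Thumpd3-as1 from 1.42 to 3.96 FPKM, each with overlapping groups.

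From library to library, the median ratio of the highest to the lowest FPKM was 2.04 for the non-coding genes and 1.44 for coding genes at the same threshold, a difference that was not tested. It was under 1.5 in 18 genes and over 5, or had a library at 0, in 12; these 12 were singled out after their values had been seen. The steadiest of the 84 included LOC102548522 by Snx6, with 3.43 to 3.68 FPKM over the 6 libraries, and LOC102549675, an implied 7348 bases and overlapping Tmed10, with 18.6 to 23.5 FPKM. Within that narrow range, the CKD libraries of LOC102549675 all lay below its controls (adjusted p = 0.229, limma). The authors' deposited table marks it as lower in CKD (q = 0.00592).

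At the other end, LOC120096227 ran over a 419-fold range. It had 0.374, 24.2 and 18.97 FPKM in CKD and 1.30, 157 and 157 FPKM in control, from 49, 2822, 2771, 207, 22200 and 20378 fragments. Replicate 1 was the lowest library of each group, and within the other libraries the controls were the higher. The means were 14.5 ± 12.5 and 105 ± 89.8 FPKM (SD, n = 3 each), and with a log2 difference of -2.12 ± 2.03 the adjusted p was 0.571. LOC100910973, which lies by the membrane protein gene Ms4a8, resembled it in part, with 17.9, 18.5 and 18.5 FPKM in CKD and 12.4, 73.5 and 68.7 FPKM in control (log2 difference -1.09 ± 0.67, adjusted p = 0.386). In both genes, control replicates 2 and 3 stood far above the other 4 libraries.

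LOC120096183, not matched in GRCr8, had no fragment in CKD replicate 1, 12.2 and 9.60 FPKM in CKD replicates 2 and 3, and 67.4, 8.88 and 8.79 FPKM in control. A count of 0 allows up to about 3 fragments, while control replicate 1 had 2807, so the first replicates held both the lowest and the highest value of this gene. LOC120094235 split the libraries in yet another way, with 0.184, 3.78 and 2.47 FPKM in CKD and 3.83, 0.0566 and 0 FPKM in control. LOC120098827 was low in control replicate 1 alone, with 0.410 FPKM there and 3.07 to 3.34 FPKM elsewhere. LOC120103154, a neighbour of Pappa (a protease that frees insulin-like growth factors), had 22.8, 16.8 and 14.2 FPKM in CKD and 15.6, 2.55 and 2.01 FPKM in control. Pappa was at 58.3, 43.1 and 43.1 FPKM in CKD and at 79.1, 10.2 and 9.85 FPKM in control, so control replicates 2 and 3 were lowest for both genes.

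**Figure D5:**
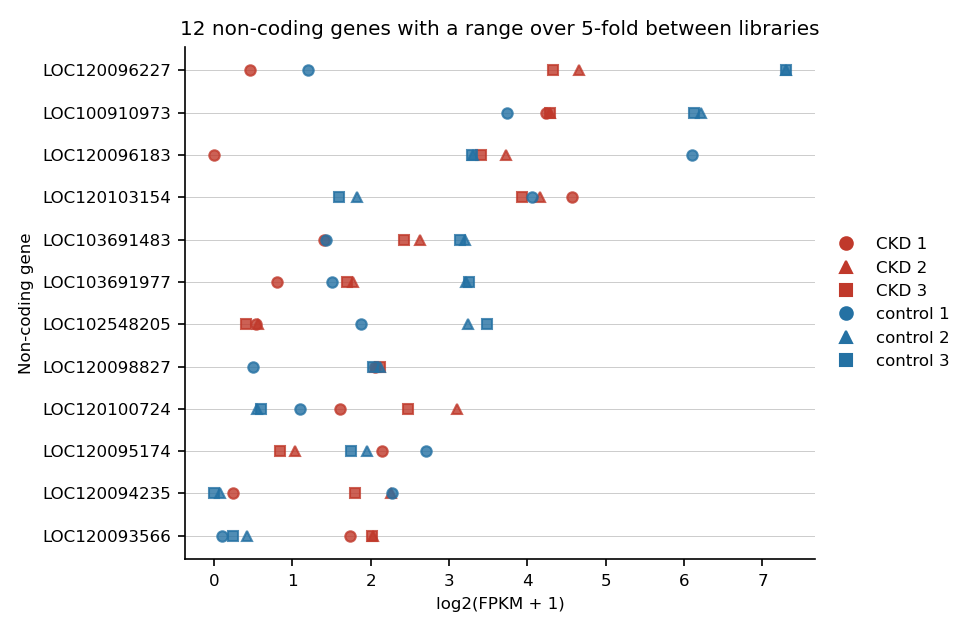
The 12 non-coding genes whose libraries spanned more than 5-fold or included a 0, as log2(FPKM + 1) in each library (red CKD, blue control; circle, triangle and square for replicates 1, 2 and 3). For LOC120096227 and LOC120096183 the circles of the first replicates lie away from the other points of their color.

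Across the whole set, both first replicates lay above the other 4 libraries in 15 genes, beside 10.9% of all tested genes, and below them in 11, beside 18.2%. The 15 were led by Gas5, LOC120102992, LOC120101764 and LOC100912041, and the 11 by LOC120096227, LOC120097382, LOC100910973 and LOC120103615. With both first replicates left out, 24 of the 84 were called higher in CKD and 24 lower, against 3689 and 2162 of 10638 genes, so the number of calls depended on these 2 libraries. Leaving out 1 other library at a time (CKD replicate 2 or 3, control replicate 2 or 3) gave no call among the 84, with 14 to 18 at an unadjusted p below 0.05.

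Coding neighbours were looked at next, because many lncRNAs share a promoter or reads with the gene beside them. A nearest coding gene present in the table was found for 73 of the 84, and 58 such neighbours were tested. Of these, Bub1 and Oip5 rose and Dhrs3 fell, and the others did not pass the test. Over all tested genes, 1.33% were called higher and 0.733% lower. Bub1, a kinase of the spindle checkpoint, is the neighbour of Mtln and had 5.08 ± 0.657 FPKM in the CKD libraries and 2.28 ± 0.393 FPKM in the controls (n = 3 each, SD; log2 difference 0.89 ± 0.13, adjusted p = 0.0439), while Mtln had a log2 difference of -0.20 ± 0.21. Oip5, a centromere factor needed to load CENP-A, had 1.59 ± 0.132 and 0.456 ± 0.169 FPKM (n = 3 each, SD; log2 difference 0.84 ± 0.12, adjusted p = 0.0429), beside 0.21 for Oip5-as1. Oip5 reached the 1 FPKM filter of the test in the CKD libraries alone. The filter thus fixed that its groups differ in level, and its test gives no support of its own. In 41 of 59 tested pairs the non-coding gene and its neighbour had differences of the same sign, a description that shared reads can enter. The share expected of unrelated pairs was not computed, and 59.4% of all tested genes had a positive difference. The distance to a neighbour had no limit, and Sec14l1 entered more than once.

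The next 4 genes were picked after their values had been seen, and neither they nor their neighbours passed the test. LOC102556395, whose nearest coding gene is Col1a1 (type I collagen) at more than 1 kb, had 5.96, 2.46 and 1.44 FPKM in CKD and 5.82, 4.77 and 4.66 FPKM in control. Col1a1 itself ran from 2620 to 5881 FPKM with its highest values in the first replicates. LOC102553018, within 1 kb of the matricellular gene Ccn1, had 7.59, 6.27 and 5.95 FPKM in CKD and 6.88, 11.5 and 11.1 FPKM in control (adjusted p = 0.235). LOC103691049, which overlaps the immediate early gene Fosb, had 7.53, 5.57 and 4.11 FPKM in CKD and 11.0, 8.85 and 5.07 FPKM in control. LOC103691977, which overlaps Tshz2, had 0.748, 2.42 and 2.25 FPKM in CKD and 1.85, 8.33 and 8.56 FPKM in control, and Tshz2 6.83, 16.2 and 17.9 FPKM and 13.6, 34.1 and 33.5 FPKM, with replicate 1 lowest in each group for both.

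The proteins that make, carry and degrade such RNAs were examined as lists. None of the genes in the lists below was called by limma. Of 12 listed genes for proteins of snoRNA particles and their assembly, 12 had positive differences, with a median log2 difference of 0.32. The list median was 22.5, 21.3 and 20.1 FPKM in the CKD libraries and 19.5, 12.5 and 12.1 FPKM in the controls, so control replicate 1 lay close to the CKD libraries. Fbl, the methyltransferase of box C/D particles, averaged 32.2 ± 5.60 FPKM in the CKD libraries and 19.4 ± 3.24 FPKM in the controls (n = 3 each, SD; adjusted p = 0.102, limma). Of 17 nonsense-mediated decay factors, 16 were positive with a median of 0.17, and of 16 genes of the nuclear RNA exosome and its helicase, 14 with a median of 0.23. Paraspeckle and speckle proteins were positive in 13 of 13 with a median of 0.32, and the list median was 26.6, 30.9 and 29.5 FPKM in the CKD libraries and 24.5, 25.0 and 24.7 FPKM in the controls. Sfpq, a core paraspeckle protein, was at 19.9 ± 2.83 and 12.7 ± 1.25 FPKM (n = 3 each, SD; adjusted p = 0.0821, limma). MicroRNA processing genes, 9 of 13 in the table, were positive in 5 with a median of 0.01. The median over all tested genes was 0.05, and 59.4% of them were positive. In the authors' deposited table, a q-value below 0.05 marks as higher in CKD 2 of the snoRNA particle genes (Fbl and Nop58), 2 decay factors, 2 exosome genes (Dis3 and Exosc8) and 5 paraspeckle and speckle genes, Sfpq among them. The authors' deposited table marks 1 microRNA processing gene, Tnrc6a, as lower. Of all genes in that table, 6.72% are marked as higher and 4.6% as lower.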

How the data were processed

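RNA was measured by poly-A RNA sequencing in 6 libraries, per the labels' protocols. The submitters' processing notes name the aligner HISAT2 2.1.0, the counter HTSeq 0.11.2, DESeq 1.34.1 and DESeq2 1.22.2, FastQC 0.11.9, SAMtools 1.9 and the rat build mRatBN7.2, without order or settings. The authors deposited 1 table with FPKM values per library, mean normalized counts per group, and, for their own comparison, p-values with q-values, a ratio and its log2, as stated per the file headers. Groups followed title and column name.

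Whole fragment numbers could be recovered from the deposited FPKM: all 100140 values came out whole within 0.01. Depth was 34404037 to 46892613 fragments per library. Intervals and the floor of 3 fragments cover counting error only. The main test was limma 3.58.1 (R 4.3.3; trended empirical Bayes, two-sided) on log2(FPKM + 1) for genes that reached 1 FPKM in 3 or more libraries, with Benjamini-Hochberg adjustment over all 10638 tested genes. All 84 non-coding genes passed that filter, since the rule that chose them is stricter. Differences are on the log2(FPKM + 1) scale and understate changes of low genes. The script was tested on simulated data.

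Genes named are those called, the 10 with the highest means, symbols with groups that do not overlap, symbols in the gene lists, those at the edge of the rule and the 5 placeholder names with the lowest adjusted p; others were singled out after their values were seen. The genes and lists were chosen with earlier results of these data known. RefSeq's GRCr8 annotation served only for names, gene types and neighbours, and no coordinates are given. Alternatives were the pseudocount, the filter, size factors, limma-voom on recovered counts, a replicate block, averaging libraries with a shared name start, leaving out libraries, grouping by tag and a haematopoietic covariate.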

Additional observations from a re-analysis of the deposited data

How the results depend on the processing

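The main test called 3 of the 84 non-coding genes higher and 1 lower. The count of higher genes was 0 with libraries of a shared name start averaged, 0 with groups by the disease tag and 0 with the haematopoietic covariate, 24 with both first replicates left out, and 0 to 9 with 1 library left out; the other settings gave 2 or 3. The count of lower genes was 2 with a pseudocount of 0.1, 2 with size factors, 3 without the libraries of conflicting tags, 24 without both first replicates, 0 to 9 with 1 library left out, and 0 without a filter, with limma-voom, with averaging and by tag. Between libraries of the same replicate number, the correlations of deviations were small (0.036, -0.031 and 0.109). CKD replicates 1 and 3 correlated best with the control of the same number, and CKD replicate 2 with control replicate 1 (0.025). Whether the numbers pair the libraries is thus not settled. A replicate block gave 2 higher and 0 lower. Where no gene was called, 9 to 27 of the 84 had an unadjusted p below 0.05 in limma. Without CKD replicate 1 the counts were 6 and 8, and without control replicate 1 they were 9 and 9; without any other single library, 0 and 0. A group reduced to 2 libraries is assumed to vary like the other.

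Direction was kept by 40 of the 84 genes in all 16 settings. Of the named genes, those that turned were not called in the main test. By tag, the log2 differences were -0.15 (Gas5), 2.44 (LOC120096227), -0.28 (LOC120102992), -0.0839 (LOC120101764), -0.29 (LOC100912041), 0.23 (LOC100910973), 0.11 (LOC100363521) and -0.0406 (Snhg4). With the covariate they were -0.0238 (Gas5), -0.21 (LOC120102992), -0.14 (LOC100912041), 0.0228 (LOC100910973) and 0.0457 (LOC100363521). Without the libraries of conflicting tags they were 0.23 (LOC120096227), -0.10 (LOC120102992), -0.0117 (LOC120101764) and 0.0555 (LOC100363521), and without both first replicates -0.0841 (LOC120103615). With 1 library left out at a time, the ranges were -0.0387 to 0.50 for LOC120102992, -0.0248 to 0.14 for LOC120101764, -0.31 to 0.60 for LOC120103615 and -0.12 to 0.038 for LOC100363521. The cause was not tested.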
